A study of Homo sapiens with 8 samples.

Results

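Aminoacyl-tRNA synthetases join each amino acid to the tRNAs that carry it, and so set the supply of charged tRNA to the ribosome. Human cells keep separate cytosolic and mitochondrial sets, nearly all encoded by different nuclear genes, and the mitochondrial enzymes are imported to serve translation inside the organelle. The genes were taken as a listed family, by symbol. The rule used no measured value, but earlier results of these data were known when the list was chosen. The list held 19 cytosolic members, 2 of which (GARS1 and KARS1) also supply the mitochondrion, and 16 mitochondrial members. All 35 were found among the 58735 genes of the tables, and all 35 passed the filter on low counts, as did 18242 genes in all.

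The RNA came from BEAS-2B, an established and virally immortalised line of human bronchial epithelial cells. Cells grown on culture inserts were exposed at an air-liquid interface for 2 h to 1 ppm formaldehyde (FA) or clean air (CA). They then had 6 h of recovery. Each ribosomal-RNA-depleted pool was divided into input (IN) and a fraction pulled down (IP) with an antibody against 8-oxo-7,8-dihydroguanine (8-oxoG), an oxidised form of guanine. The 4 groups, CA_IN, FA_IN, CA_IP and FA_IP, held 2 libraries each, numbered 1 and 3 in the names of the deposited tables, and input and IP of the same treatment and number were taken as 1 pool. A single cell line is a narrow model of the airway, and because the RNA is bulk, fewer cells of a kind and less RNA per cell cannot be told apart.

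Libraries held 16883500 to 45144392 expected counts, and the 35 members took 0.385% to 0.478% of them. The members were well covered, from 176 counts for PARS2 in the FA_IP 3 library to 20158 for IARS1 in CA_IN 1. The epithelial keratins KRT5, KRT7, KRT8, KRT17, KRT18 and KRT19 ranged from 95.01 to 497 TPM in input, where TPM are transcript levels per length scaled to a fixed total, and the epithelial adhesion genes EPCAM and CDH1 from 8.82 to 13.4 TPM. PTPRC, CD3E, PECAM1, CDH5, COL1A2 and PDGFRA, markers of immune, endothelial and fibroblast cells, stayed at or below 0.09 TPM in input, and CD68 lay between 1.46 and 2.13 TPM. BEAS-2B therefore carried the epithelial markers of its label.

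Several cytosolic synthetase genes are known targets of ATF4, the transcription factor of the amino acid and integrated stress responses, which binds a short element in their promoters. The core of that element, TGATGNAA, was searched on both strands of the RefSeq promoters (GRCh38.p14, 250 bases before to 50 after the gene start), of which 30 of the 35 members had an entry. It was found in 8 of the 30 members (26.7%), against 4.46% of the 27305 genes with an entry: in 7 of 16 cytosolic members and 1 of 14 mitochondrial members. The matches are shown with flanking bases because 7 of them lie in the 10 members with an entry that were listed as ATF4-induced, a list that leaves out YARS2; capitals mark the motif, on the strand of the gene or, written as TTNCATCA, on the opposite strand.
AARS1 (chr16:70289676-70289703, minus strand): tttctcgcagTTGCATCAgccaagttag
CARS1 (chr11:3057408-3057435, minus strand): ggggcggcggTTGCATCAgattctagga
GARS1 (chr7:30594835-30594862, plus strand): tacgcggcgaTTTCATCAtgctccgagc
IARS1 (chr9:92293693-92293720, minus strand): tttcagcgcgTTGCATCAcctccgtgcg
MARS1 (chr12:57488054-57488081, plus strand): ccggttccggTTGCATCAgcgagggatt
NARS1 (chr18:57621805-57621832, minus strand): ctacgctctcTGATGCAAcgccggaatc
TARS1 (chr5:33440957-33440984, plus strand): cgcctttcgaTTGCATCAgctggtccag
YARS2 (chr12:32756077-32756104, minus strand): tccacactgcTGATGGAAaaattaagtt
Counted from the annotated gene start, the matches of the 6 cytosolic members other than AARS1 began between positions -33 and 14, and those of AARS1 and YARS2 at -187 and -197. A match describes the letters in this window and is not a measured site of binding.

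The cytosolic enzymes were the more abundant class in input. In the 4 input libraries the median cytosolic member stood at 28.2 to 30.8 TPM and the median mitochondrial member at 4.45 to 4.74 TPM, a ratio of 6.04 to 6.53 within a library. TARS1, which charges threonyl-tRNA, was the highest cytosolic member at 61.6 and 65.5 TPM in CA_IN and 56.3 and 70.8 TPM in FA_IN. It exceeded its nearest neighbour KARS1, the lysyl-tRNA synthetase, within each of the 4 libraries, where KARS1 stood at 59.7 and 57.5 TPM in CA_IN and 53.9 and 64.1 TPM in FA_IN. In CA_IN the means were 63.5 ± 2.81 and 58.6 ± 1.61 TPM (SD, n = 2), and the FA_IN ranges of both genes overlapped. VARS1, for valine, had the lowest mean of the cytosolic members in CA_IN, at 9.17 and 9.07 TPM in CA_IN and 9.77 and 8.20 TPM in FA_IN, where FARSB was just below it in replicate 1 at 9.70 TPM. Among mitochondrial members IARS2, for isoleucine, was the highest at 18.4 and 15.6 TPM in CA_IN and 15.9 and 17.4 TPM in FA_IN. PARS2, for proline, had the lowest mean of the mitochondrial members in both groups, at 2.21 and 1.22 TPM in CA_IN and 1.23 and 1.00 TPM in FA_IN. In CA_IN 1 AARS2 (2.00 TPM) and WARS2 (1.71 TPM) were below it, and its range overlapped with those of AARS2, MARS2 and WARS2.

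**Figure D1:**
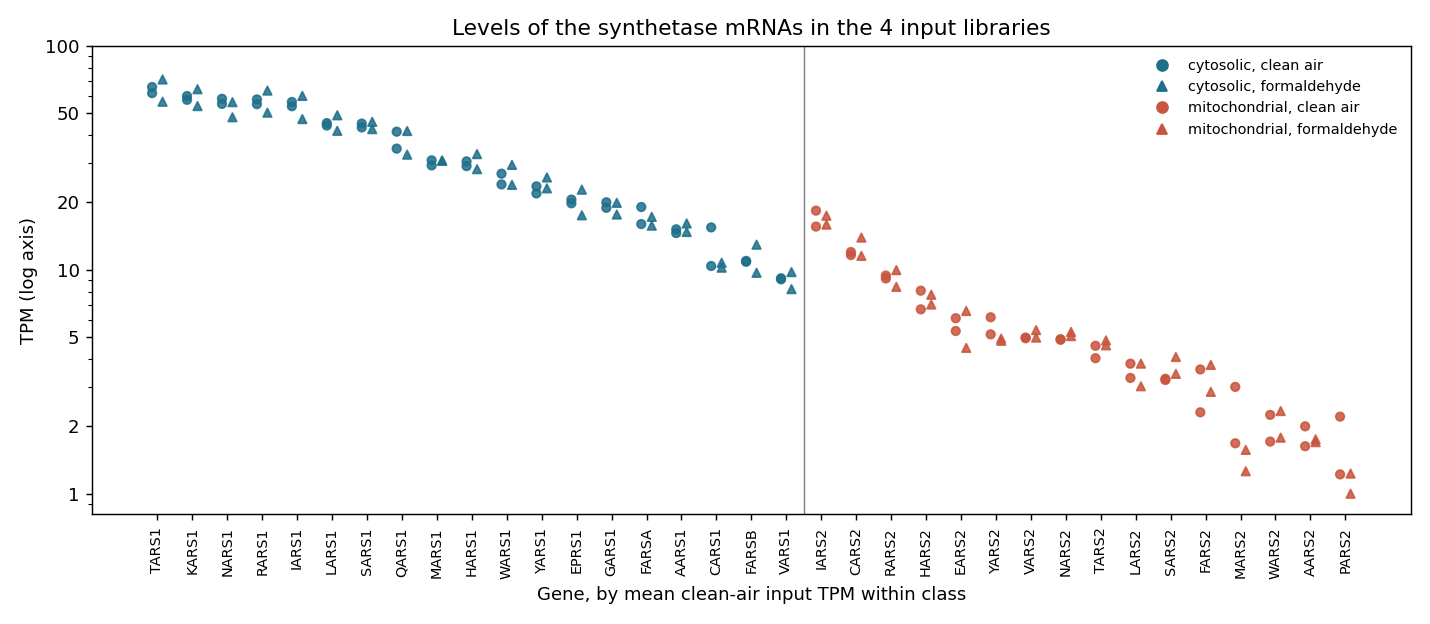
Level of each synthetase mRNA in TPM (log axis) in the 4 input libraries, with genes ordered by mean clean-air level within the cytosolic (teal) and mitochondrial (red) classes; circles are the 2 clean-air libraries and triangles the 2 formaldehyde libraries. Cytosolic members span from TARS1 at 61.6 to VARS1 at 9.17 TPM in CA_IN 1, and most mitochondrial members sit below all of them.

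Where the same amino acid is charged by a cytosolic and a mitochondrial enzyme, the cytosolic mRNA was the higher in all 4 input libraries in 16 of 17 pairs. FARSA and FARSB, the alpha and beta subunits of the cytosolic phenylalanyl enzyme, were each paired with FARS2, and EPRS1, the fused glutamyl- and prolyl-tRNA synthetase, with both EARS2 and PARS2. The exception was cysteine, where CARS1 ran from 0.772 to 1.29 times CARS2 in TPM. The valine pair was also close, with VARS1 at 1.65 to 1.85 times VARS2. At the other end EPRS1 stood at 8.97 to 22.8 times PARS2, MARS1 at 10.3 to 24.4 times MARS2, TARS1 at 11.6 to 16.3 times TARS2, WARS1 at 11.9 to 14.1 times WARS2, SARS1 at 11.2 to 14.0 times SARS2 and LARS1 at 11.9 to 13.8 times LARS2. Intermediate ratios were found for NARS1 (9.09 to 11.9), AARS1 (7.58 to 9.21), RARS1 (5.83 to 6.34), FARSA (4.19 to 8.26), YARS1 (3.84 to 5.37), HARS1 (3.64 to 4.70), FARSB (3.05 to 4.70), EPRS1 against EARS2 (3.39 to 3.91) and IARS1 (2.93 to 3.60). HARS1 and HARS2 lie next to each other on chromosome 5 and have closely similar sequences, so the division of reads between them rests on the authors' estimation.

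In input, no synthetase mRNA passed the test for formaldehyde against clean air, and most estimates were small and above 0. No member was called by edgeR (adjusted p = 0.945 for the smallest, n = 2 against 2), where 0.00548% of all genes were called. None had an unadjusted p under 0.05, against 611 of 18242 genes. DESeq2 called none and had 1 member under that unadjusted limit, against 339 genes. The median log2 fold change of formaldehyde over clean air was 0.080 over all 35 members, 0.080 over the cytosolic and 0.077 over the mitochondrial members, against 0.019 over all genes tested. With library sizes in place of TMM these medians were 0.038, 0.040 and 0.037, against -0.021 over all genes, and without FA_IN 3 the cytosolic median was 0.033. Estimates above 0 were held by 30 of the 35 members (85.7%), against 53.4% of all genes. Both FA_IN libraries exceeded both CA_IN libraries in 15 members (42.9%), against 18.1% of all genes, and both lay below them in 1, YARS2, against 15.8%. These are small shifts: for the 19 cytosolic members the estimates ran from -0.025 to 0.16, and the widest upper bound of their 95% intervals was 0.38, that of VARS1.

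The largest positive estimates were those of SARS2, FARS2 and CARS1, given here in CPM, the counts of a gene scaled to a fixed library total after TMM normalisation. SARS2, the mitochondrial seryl-tRNA synthetase (chr19:38915266-38930763), read 11.9 and 13.04 CPM in CA_IN and 15.1 and 15.0 in formaldehyde input, a log2 difference of 0.28 ± 0.16 (SE; 95% interval -0.095 to 0.65). Its FA_IN libraries lay above its CA_IN libraries. FARS2, for mitochondrial phenylalanyl-tRNA, read 8.32 and 13.4 CPM in CA_IN and 11.6 and 13.9 in formaldehyde input, a log2 difference of 0.24 ± 0.25, and its groups overlapped. CARS1, the cytosolic cysteinyl-tRNA synthetase (chr11:3000922-3057613), read 60.2 and 61.0 CPM in CA_IN and 69.5 and 65.7 in formaldehyde input, a log2 difference of 0.16 ± 0.086, with no overlap.

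The largest negative estimates belonged to the mitochondrial members MARS2, PARS2 and YARS2, whose most abundant isoforms have 1, 2 and 5 exons. WARS2 and FARS2, with 6 and 7 exons, had estimates above 0, at 0.11 and 0.24. MARS2, the mitochondrial methionyl-tRNA synthetase, is encoded by 1 exon (chr2:197705369-197708395) and read 23.2 and 13.4 CPM in CA_IN and 13.9 and 9.77 in FA_IN. Its log2 difference was -0.64 ± 0.33 (95% interval -1.38 to 0.11; adjusted p = 0.945). CA_IN 1 was high, CA_IN 3 and FA_IN 1 were alike, and without 1 of the libraries the estimate ran from -0.98 to -0.18. PARS2 (2 exons; chr1:54756898-54764523) showed the same order, at 12.96 and 7.38 CPM in CA_IN and 8.24 and 5.90 in formaldehyde input, a log2 difference of -0.53 ± 0.34 that ran from -0.89 to -0.070 without 1 of the libraries. YARS2, for mitochondrial tyrosyl-tRNA, read 26.8 and 23.9 CPM in CA_IN and 22.8 and 22.7 in formaldehyde input, a log2 difference of -0.15 ± 0.13 (-0.24 to -0.069 without 1 of the libraries).

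In both treatments the replicate 1 library of MARS2 and PARS2 lay above replicate 3. Over the 425 genes whose most abundant isoform has 1 exon and whose mean input exceeds 5 CPM, replicate 1 exceeded replicate 3 by a median of 0.18 in CA_IN and 0.24 in FA_IN (log2), against 0.034 and 0.015 over 9950 genes with several exons. PARS2, with 2 exons, is not among the 425. The median log2 difference of formaldehyde over clean air in input was -0.032 over the 425 genes and 0.019 over the 9950. The part of the replicate difference in the MARS2 and PARS2 estimates was not tested. With the replicate number as a block, MARS2 was the 1 member called lower in FA_IN (log2 difference -0.60, adjusted p = 0.0196), where 1.34% of all genes were called lower. The sources used here do not state whether FA and CA libraries of 1 number shared an exposure run.

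**Figure D2:**
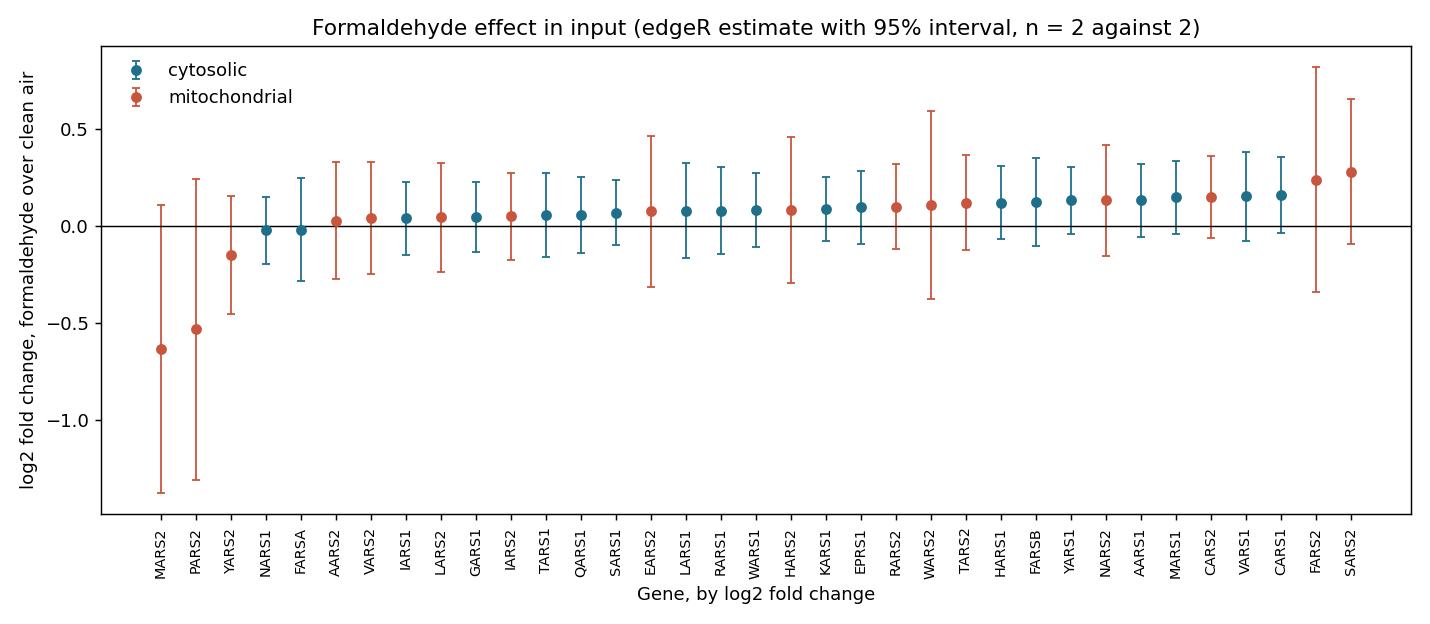
Log2 fold change of formaldehyde over clean air in input for the 35 members (edgeR estimate, bars are 95% intervals, 2 libraries against 2), ordered by size; teal is cytosolic and red mitochondrial. Every interval crosses 0, and MARS2 at -0.64 and PARS2 at -0.53 have the widest ones.

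The 12 cytosolic members listed as ATF4-induced had a median log2 difference of 0.078 in input, against 0.080 over all members, a range of -0.025 to 0.16 and 0 called. Of 16 other genes of the ATF4 pathway, 0 were called either and their median was 0.026. Their values spread more widely: ATF3, a stress-induced transcription factor, was at 0.53 ± 0.21 (adjusted p = 0.945), DDIT3, which encodes the stress factor CHOP, at 0.29 ± 0.13, ATF4 itself at 0.22 ± 0.14 and CHAC1, a glutathione-degrading enzyme, at -0.30 ± 0.21. ASNS, asparagine synthetase, was at 0.11 ± 0.43. Of 18 partners of tRNA charging, such as scaffold proteins of the synthetase complex, the tRNA exporter XPOT and elongation factors, 0 were called and the median was 0.056.

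After TMM scaling, most synthetase mRNAs were more abundant, by a small margin, in the 8-oxoG pull-down than in the matching input. The median log2 fold change of IP over IN, both treatments together, was 0.15 over the members (0.14 cytosolic, 0.18 mitochondrial) against 0.0064 over all genes. IP exceeded IN in all 4 pools in 23 of 35 members (65.7%), against 23.3% of all genes, and fell below it in all 4 pools in EPRS1 and IARS2 (5.71%, against 17.5%). All 4 IP libraries lay above all 4 IN libraries in 11 members (31.4%, against 7.76% of all genes): AARS1, FARSA, HARS1, KARS1, NARS1, QARS1, SARS1, VARS1, WARS1, AARS2 and TARS2. All 4 lay below in EPRS1 alone (2.86%, against 5.9%). The pools gave member medians of 0.16 and 0.18 in clean air and 0.11 and 0.13 in formaldehyde. The size and sign of these ratios depend on the scale. In the deposited TPM the mean of EPRS1 was 20.2 in CA_IN and 32.9 in CA_IP, and 20.2 in FA_IN and 32.5 in FA_IP. The keratin KRT7 ran from 432 to 497 TPM in input and from 993 to 1246 TPM in IP.

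By the edgeR test without the pool as a block, 2 members were called higher in IP, FARSA and SARS1, and 0 lower. Of all genes, 2.15% were called higher and 3.04% lower. An unadjusted p under 0.05 was held by 16 of the 35 members and by 3239 of 18242 genes. Input and IP of a pool varied together, and with the pool as a block 20 members were called higher and 1, EPRS1, lower, where 15.5% and 9.64% of all genes were called. Of the 20, 11 were cytosolic and 9 mitochondrial. The fit without the block was sensitive to single libraries: leaving out any 1 of them gave fewer calls, among the members and over all genes. Without 1 of the libraries the log2 difference of FARSA ran from 0.31 to 0.45 and that of SARS1 from 0.22 to 0.25.

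FARSA, the alpha subunit of the cytosolic phenylalanyl-tRNA synthetase (chr19:12922479-12934037), read 79.8 and 69.4 CPM in CA_IN, 80.9 and 66.2 in formaldehyde input, 101 and 101 in clean-air IP and 94.8 and 89.1 in formaldehyde IP. All IP libraries were above all IN libraries, and the log2 difference was 0.38 ± 0.082 (adjusted p = 0.0334). FARSB, the beta subunit of the same enzyme, had a log2 difference of -0.0036 ± 0.074; the difference between the subunits was not tested. SARS1, the cytosolic seryl-tRNA synthetase (chr1:109213918-109238182), read 182 and 183 CPM in CA_IN, 196 and 187 in formaldehyde input, 217 and 225 in clean-air IP and 217 and 223 in formaldehyde IP, a log2 difference of 0.24 ± 0.053 (adjusted p = 0.0347). Its groups did not overlap.

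SARS2 had the largest estimate of the 35 but, at a lower level, a wider error. It read 15.0 and 20.6 CPM in clean-air IP and 18.7 and 20.2 in formaldehyde IP, against the input values above, a log2 difference of 0.44 ± 0.12 (adjusted p = 0.0692; 4.87e-05 with the pool as a block). AARS2, the mitochondrial alanyl-tRNA synthetase, read 18.9 and 15.9 CPM in CA_IN, 18.51 and 17.0 in formaldehyde input, 23.8 and 21.2 in clean-air IP and 22.8 and 20.9 in formaldehyde IP, a log2 difference of 0.33 ± 0.098 (adjusted p = 0.098; 0.00022 with the block). IP was the higher in each pool. PARS2 read 15.3 and 9.26 CPM in clean-air IP and 10.95 and 7.23 in formaldehyde IP, above its input in all 4 pools, at 0.32 ± 0.25. YARS2 read 32.0 and 28.7 CPM in clean-air IP and 29.8 and 24.4 in formaldehyde IP, at 0.26 ± 0.095.

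At the low end stood EPRS1 (chr1:219968600-220046530). It read 246 and 245 CPM in CA_IN, 249 and 275 in formaldehyde input, 230 and 216 in clean-air IP and 233 and 242 in formaldehyde IP, so that all IP libraries were below all IN libraries. Its log2 difference was -0.14 ± 0.059 (adjusted p = 0.252; 0.0222 with the block). IARS2 read 167 and 147 CPM in CA_IN, 166 and 159 in formaldehyde input, 160 and 142 in clean-air IP and 164 and 152 in formaldehyde IP, at -0.048 ± 0.070, and RARS1 read 256 and 285, 263 and 308, 260 and 268, and 277 and 290 CPM in the same order, at -0.023 ± 0.070. Both overlapped between IP and IN.

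**Figure D3:**
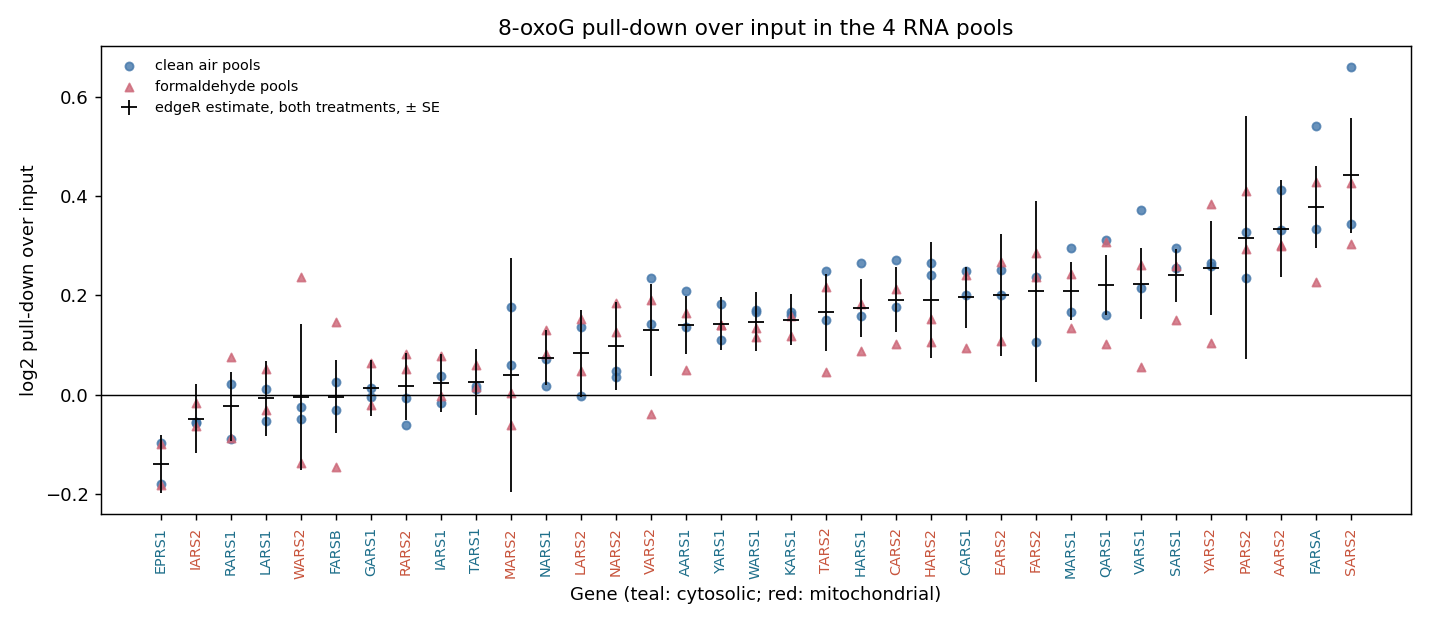
Log2 ratio of pull-down to input in each of the 4 RNA pools (circles, clean air; triangles, formaldehyde) and the edgeR estimate over both treatments with its SE (black), for the 35 members in order of the estimate. EPRS1 lies below 0 in all 4 pools at -0.14, while FARSA at 0.38 and SARS2 at 0.44 lie above 0 in all 4.

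The multisynthetase complex, a cytosolic assembly that holds several synthetases together, was close to the median of all genes: its 7 members had a median log2 difference of 0.024 and ran from -0.14 for EPRS1 to 0.22 for QARS1, the glutaminyl-tRNA synthetase. LARS1, IARS1 and RARS1 of the complex lay at -0.0076, 0.024 and -0.023, while MARS1 and KARS1 lay at 0.21 and 0.15. Members of the 2 structural classes of catalytic domain were similar, with medians of 0.14 for 18 class I and 0.17 for 16 class II members; EPRS1 holds a domain of each. The difference between these lists was not tested.

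Among the partners of tRNA charging, 2 of 18 were called higher and 1 lower in IP against IN, and with the pool as a block 5 higher and 1 lower; the shares of all genes are the same 2.15% and 3.04%, and 15.5% and 9.64%. TUFM, the mitochondrial elongation factor Tu, was higher by 0.36 ± 0.062 (adjusted p = 0.0129) and DTD1, a deacylase that clears mischarged D-amino acids, by 0.27 ± 0.061 (adjusted p = 0.0374). EEF1E1, a scaffold protein of the multisynthetase complex, was lower, at -0.44 ± 0.092 (adjusted p = 0.0291). In the ATF4 pathway 2 of 16 were called, both higher, and with the block 8 higher and 1 lower. The 2 were SLC3A2, a subunit of amino acid transporters, at 0.29 ± 0.058 (adjusted p = 0.0219) and PPP1R15A, a stress-induced phosphatase subunit, at 0.32 ± 0.073 (adjusted p = 0.0428). The medians of these lists were 0.018 and 0.21.

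Within each treatment the direction was similar but the test had less to work with. In clean air the median member stood at 0.17 (all genes, 0.016), and 0 members were called, where 1.91% of all genes were. An unadjusted p under 0.05 was held by 10 of the 35 members and 2294 of 18242 genes (5 members and 1619 genes by DESeq2). In formaldehyde the median was 0.13 (all genes, 0.0035), and 0 were called, where 1.5% of all genes were. The unadjusted limit was met by 4 of the 35 members and 1660 of 18242 genes (1 member and 1168 genes by DESeq2). With the pool as a block 13 members were called higher in clean air, where 11.6% of all genes were, and 4 in formaldehyde, where 5.45% were: SARS1, SARS2, AARS2 and FARSA. The highest estimates in clean air were those of SARS2 (0.52), FARSA (0.43) and AARS2 (0.37), and the lowest those of EPRS1 (-0.14), IARS2 (-0.057) and WARS2 (-0.039). In formaldehyde they were those of SARS2 (0.37), PARS2 (0.36) and FARSA (0.32), and EPRS1 (-0.14), IARS2 (-0.040) and MARS2 (-0.024). Several rested on single libraries: without 1 of them SARS2 ran from 0.28 to 0.73 and AARS2 from 0.24 to 0.50 in clean air, and PARS2 from 0.040 to 0.66, FARSA from 0.20 to 0.48 and EPRS1 from -0.20 to -0.051 in formaldehyde.

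WARS2, the mitochondrial tryptophanyl-tRNA synthetase, read 10.8 and 14.4 CPM in CA_IN, 11.4 and 15.6 in formaldehyde input, 10.6 and 13.9 in clean-air IP and 13.4 and 14.2 in formaldehyde IP, with overlap throughout. MARS2 read 24.1 and 15.1 CPM in clean-air IP and 13.9 and 9.37 in formaldehyde IP, each close to the input of its own pool.

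The direct test of whether the pull-down ratio differed between treatments called 0 members and 0 of all genes. No member had an unadjusted p under 0.05 by edgeR or DESeq2, against 195 and 53 of 18242 genes. With the pool as a block, 0.137% of all genes were called, none of them members. Estimates (FA minus CA, log2) ran from -0.15 for SARS2, -0.14 for VARS1 and -0.13 for MARS2 to 0.10 for RARS2, 0.10 for FARS2 and 0.11 for NARS2, with a median of -0.025. VARS1 read 65.3 and 60.1 CPM in CA_IN, 75.3 and 64.3 in formaldehyde input, 75.8 and 77.8 in clean-air IP and 78.2 and 77.1 in formaldehyde IP, so its IP values were alike in both treatments. FARS2 read 9.81 and 14.4 CPM in clean-air IP and 14.1 and 16.4 in formaldehyde IP. NARS2, the mitochondrial asparaginyl-tRNA synthetase, read 21.3 and 24.6 CPM in CA_IN, 24.9 and 25.3 in formaldehyde input, 21.9 and 25.4 in clean-air IP and 28.3 and 27.6 in formaldehyde IP. RARS2, for mitochondrial arginyl-tRNA, read 37.8 and 39.0, 40.2 and 42.0, 36.3 and 38.8, and 42.6 and 43.6 CPM in the same order.

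The pull-down ratio of a member followed the guanine share of its transcripts. The share was averaged over the isoforms of a gene, weighted by their input counts, for the 33 members with at least 80% of counts on isoforms found in GENCODE 44 (HARS1 and HARS2 fell short). Across these genes, which share the same 8 libraries and are not independent replicates, Spearman's rho of the log2 ratio with the guanine share was 0.80, and with the GC share 0.83; over 17758 genes it was 0.55 and 0.52. It was 0.85 over 18 cytosolic and 0.70 over 15 mitochondrial members, and 0.86 in clean air and 0.71 in formaldehyde. Transcript length (-0.41) and mean input level (-0.41) had weaker relations of opposite sign among the members, which over all genes were -0.030 and 0.088. The formaldehyde difference in input had a rho of 0.15 with the guanine share of the members.

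FARSA had the highest guanine share of the 33 (31.6%), followed by AARS2 (31.0%) and VARS1 (30.5%), and FARSB (20.1%) and WARS2 (21.0%) the lowest. The 14 members above 27% guanine had log2 ratios from 0.13 to 0.44 with a median of 0.21, while the 19 below it ran from -0.14 to 0.32 with a median of 0.026, so the sides overlapped; over all genes the medians on the 2 sides were 0.19 and -0.056. With the limit at 24%, the 24 members above it ran from -0.048 to 0.44 (median 0.19) and the 9 below from -0.14 to 0.075 (median -0.0036). Set against all genes in the same 1% bin of guanine share, 21 of the 33 members lay within the middle 50% of the bin, 12 above its upper quartile and 0 below its lower quartile. Above the median of their bin lay 25 of the 33. The members thus followed the direction of the general relation but mostly lay above it, with a median offset of 0.078 on the log2 scale. SARS2 and PARS2 lay farthest above the median of their bins, by 0.24 and 0.23, and EPRS1 farthest below, at -0.12. The part of base composition in the pull-down ratios was not tested.

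**Figure D4:**
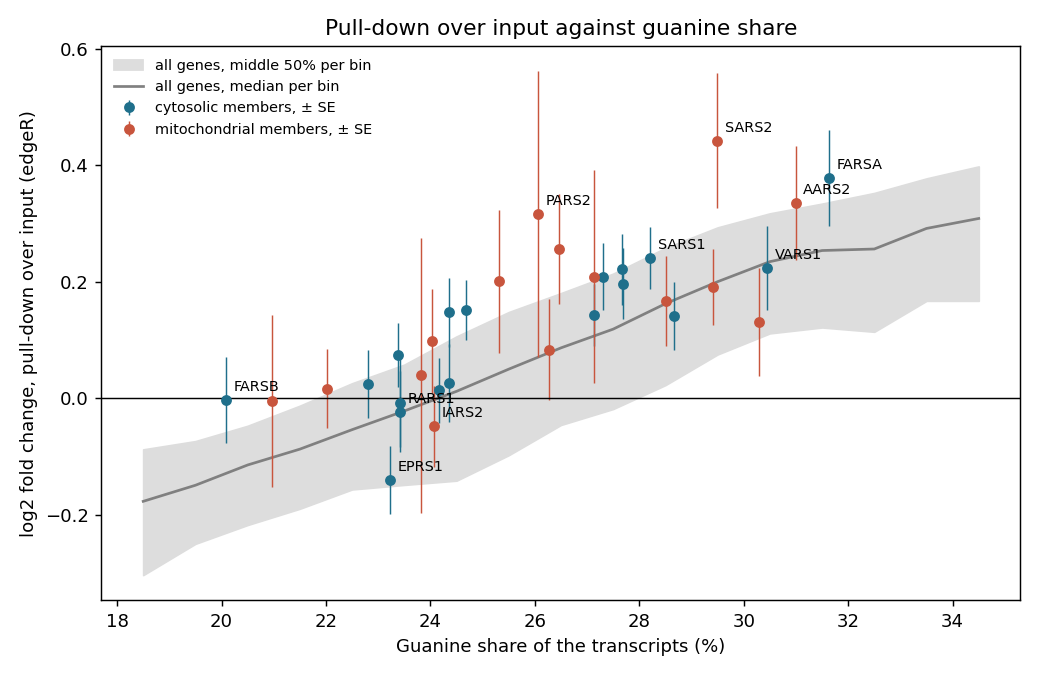
Log2 fold change of pull-down over input (edgeR, bars are SE) against the guanine share of the transcripts in percent for 33 members, teal cytosolic and red mitochondrial, over the median and middle 50% of all genes in 1% bins (grey line and band). EPRS1 lies within the band at the low left, while FARSB at 20.1% and FARSA at 31.6%, at either end, lie above its upper edge.

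The guanine content can be read in the coding sequence itself. For the 2 members called and the 3 with the lowest ratios, the 60 bases richest in guanine within a single coding exon of the most abundant isoform are shown (GRCh38, GENCODE 44), 5′ to 3′, with each guanine in capitals.
FARSA (chr19:12930241-12930300, minus strand, exon 4, 33 guanines): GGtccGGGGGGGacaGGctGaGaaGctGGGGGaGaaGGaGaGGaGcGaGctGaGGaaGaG
SARS1 (chr1:109230949-109231008, plus strand, exon 5, 31 guanines): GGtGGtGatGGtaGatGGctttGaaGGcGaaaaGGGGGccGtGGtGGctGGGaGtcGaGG
IARS2 (chr1:220094224-220094283, plus strand, exon 1, 27 guanines): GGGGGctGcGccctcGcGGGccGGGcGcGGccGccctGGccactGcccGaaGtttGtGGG
EPRS1 (chr1:219987142-219987201, minus strand, exon 20, 24 guanines): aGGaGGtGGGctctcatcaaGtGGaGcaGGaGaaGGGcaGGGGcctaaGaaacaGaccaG
RARS1 (chr5:168519091-168519150, plus strand, exon 15, 22 guanines): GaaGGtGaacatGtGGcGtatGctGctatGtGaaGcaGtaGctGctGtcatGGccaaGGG
Over the whole coding sequence guanine made up 32.2% of FARSA and 28.9% of SARS1, against 24.4% of IARS2, 23.3% of EPRS1 and 23.4% of RARS1. Across 33 members the share over the coding sequence had a rho of 0.77 with the pull-down ratio and the count in the richest window a rho of 0.48, so the window alone tracked the ratio less closely.

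Below the level of the gene, 261 isoforms of the 35 members passed the filter among 67873 transcripts. The most abundant isoform of each member held over 50% of the gene's input counts in 31 of 35, none was called in any comparison (adjusted p = 0.151 for the smallest), and their log2 IP over IN ran from -0.15 to 0.36. In the deposited isoform percentages these held 23.7% (QARS1) to 100% (FARSB, MARS2, PARS2) of the gene in CA_IN 1, apart from VARS2 at 18.3%. Isoforms annotated with a retained intron made up 3.42% to 3.93% of member counts in input and 3.28% to 3.55% in IP. The 85 such isoforms tested had a median log2 IP over IN of -0.040 (-0.082 over all 11814), while the 108 protein-coding isoforms had 0.12 (0.0046 over all 37664).

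With the filter on low counts edgeR called a single member isoform, RARS1 ENST00000521939, lower in IP, where 0.516% of transcripts were called lower. DESeq2 on transcripts called 9 member isoforms higher and 2 lower over both treatments. The share of all transcripts that DESeq2 called is not given here, so these counts cannot be set against a general rate. RARS1 ENST00000521939 is a short isoform of the cytosolic arginyl-tRNA synthetase with 5 exons (chr5:168486486-168494736), the last of which runs on into intron 5 of the 15-exon coding isoform ENST00000231572. The 86 bases that it adds there are given with the splice donor that they keep in capitals (GRCh38, plus strand); 1 other annotated RARS1 isoform also enters this intron.
RARS1 intron 5 (chr5:168494651-168494736): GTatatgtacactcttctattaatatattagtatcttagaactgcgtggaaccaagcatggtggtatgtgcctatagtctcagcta
Its expected counts were 198 and 143 in CA_IN, 68.4 and 96.1 in formaldehyde input, 0 and 0 in clean-air IP and 18.2 and 12.2 in formaldehyde IP. Both CA_IP libraries were empty and both FA_IP libraries low. In clean air it was at least 64.4-fold lower in IP (against 3 counts over the group; adjusted p = 0.029, where 0.227% of transcripts were called lower), and in formaldehyde 3.95-fold lower (adjusted p = 0.44); over both treatments the adjusted p was 0.0126. The difference between treatments was not called (adjusted p = 0.591). The main RARS1 isoform, ENST00000231572, had a log2 IP over IN of -0.024 ± 0.085.

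The study listed RARS1 ENST00000521939 and 2 other member isoforms from these same libraries, so they are no independent evidence of its direction; none of the others was called by edgeR, while DESeq2 on transcripts called HARS1 ENST00000307633 higher and NARS1 ENST00000586807 lower in FA_IN than in CA_IN. In input and for the difference between treatments edgeR called 0 member isoforms and 0 of all 67873 transcripts. Of the 261 member isoforms, 6 and 8 had an unadjusted p under 0.05. The share of all transcripts under that limit is not given here. HARS1 ENST00000307633, a protein-coding isoform of the cytosolic histidyl-tRNA synthetase, had 0 and 0 expected counts in CA_IN, 36.2 and 38.9 in formaldehyde input, 24.6 and 17.99 in clean-air IP and 0 and 0 in formaldehyde IP. It was thus at least 34.4-fold higher in FA_IN than in CA_IN, at least 25.1-fold higher in CA_IP than in CA_IN and at least 18.3-fold lower in formaldehyde IP than in FA_IN (each against 3 counts over the group), but its adjusted p was 0.866, 0.124 and 0.168. It never exceeded 1.09% of HARS1 in the deposited isoform percentages, and the gene as a whole read 142 and 142 CPM in CA_IN and 152 and 156 in FA_IN. NARS1 ENST00000586807, annotated for nonsense-mediated decay, had 68.7 and 36.8 expected counts in CA_IN, 0 and 0 in formaldehyde input, 0 and 277 in clean-air IP and 0 and 261 in formaldehyde IP. Its replicates went from 0 to over 250 within a group, and edgeR called it in no comparison (adjusted p of 1 in input and 0.542 in IP against IN). Counts of single isoforms are estimates that divide shared reads, and the 0 values beside far more abundant main isoforms depend on that division.

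**Figure D5:**
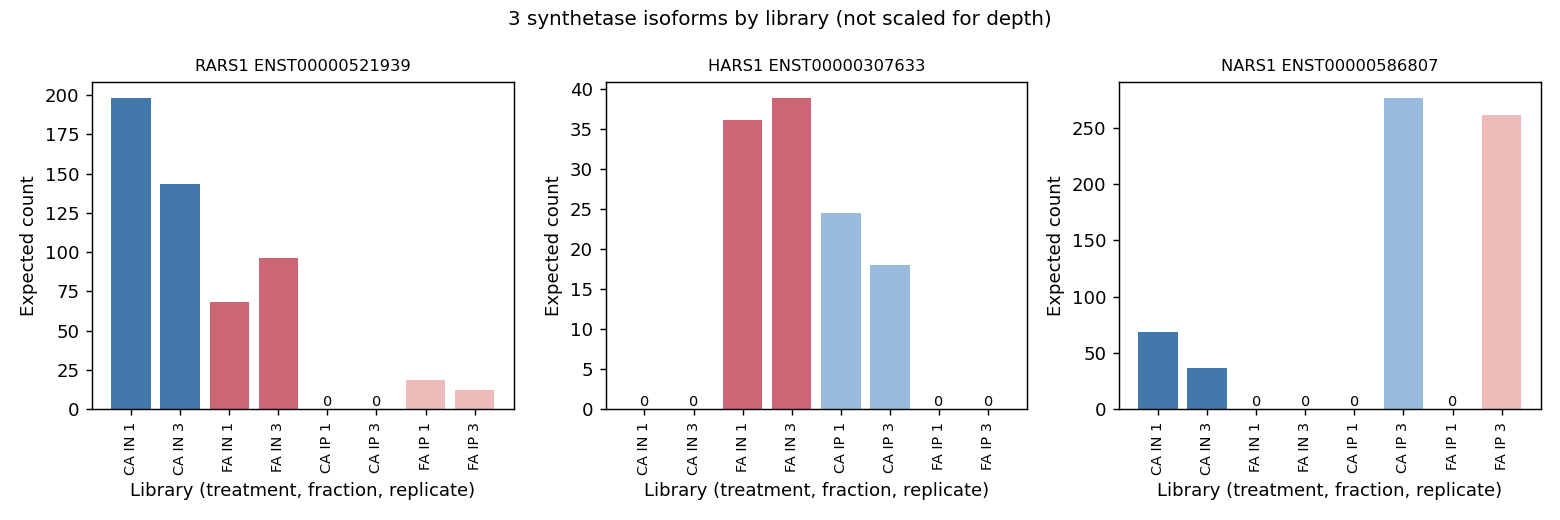
Expected counts of 3 isoforms in each of the 8 libraries (dark blue and dark red, clean-air and formaldehyde input; pale blue and pale red, their pull-downs), not scaled for depth. RARS1 ENST00000521939 falls from 198 and 143 in CA_IN to 0 and 0 in CA_IP, HARS1 ENST00000307633 is at 0 in CA_IN and FA_IP, and NARS1 ENST00000586807 differs within both IP groups.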

How the data were processed

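The authors trimmed reads with cutadapt, aligned them with STAR 2.6.0a to GRCh38 (Ensembl release 94) and estimated isoform levels with RSEM 1.2.25; they deposited expected counts, TPM and isoform percent values (share of a gene) per library. Tables of the authors' own DESeq2 comparisons held fold changes and p-values and were not used. Expected counts were summed by gene, rounded and tested with edgeR 4.0.16 (R 4.3.3): quasi-likelihood test, TMM scaling, prior count 0.125, all 8 libraries in 4 groups, at least 10 counts in at least 2 libraries, Benjamini-Hochberg adjustment over all genes, limit 0.05. DESeq2 1.42.0 was an alternative. In simulated counts with 200 of 18242 genes changed by 1 on the log2 scale in IP, the fit without a block called 184 of them and 11 others. The simulated libraries were drawn independently, and shifts as small as those of the members were not simulated. TPM served for levels between genes and TMM-scaled CPM between libraries. In each library 27 to 30 of the 35 members had gene sums within 0.05 of a whole number, the others sharing reads with other genes. Replicate numbers are those of the deposited tables. The study divided the RNA pool of each treatment into input and IP; that fractions of the same number share a pool was taken from the table names. Replicate differences of input and IP correlated across 10558 genes with r = 0.78 in clean air and 0.66 in formaldehyde, so the pool was fitted as a block. Values in every library were given for members called, for the 3 highest and 3 lowest estimates of each comparison and for the highest and lowest member of each class by TPM; isoforms were those called and 3 that the study listed. The members and lists were chosen with earlier results of these data known. The antibody clone differs between the sample descriptions and the extraction protocol. The 3-count floor covers counting error only. Without a block, p-values rest on the spread between 2 libraries a group, with input and IP of a pool treated as independent. With the pool as a block, they rest on the spread of the IP-to-input ratio between the 2 pools of a treatment. Each treatment had only 2 cultures.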

Additional observations from a re-analysis of the deposited data

Results flagged for a closer look

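RARS2 was higher in IP than in IN in both formaldehyde pools (log2 0.082 and 0.052) and lower in both clean-air pools (-0.061 and -0.0071), which put its treatments on opposite sides of 0. The fitted difference was 0.10, and the edgeR test of the difference did not call it (adjusted p of 1).

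HARS1 ENST00000307633 had counts in IP but 0 in input in both clean-air pools, and the opposite in both formaldehyde pools. Its fitted difference of -15.96 (log2) is set by the prior count, since 4 libraries were at 0, and the edgeR test on transcripts did not call it (adjusted p = 0.573).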

How the results depend on the processing

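With library sizes in place of TMM the median log2 IP over IN of all genes moved from 0.0064 to 0.16 and that of the members from 0.15 to 0.31, an unchanged difference of 0.14. This raised the members called higher from 2 to 17 over both treatments, from 0 to 9 in clean air and from 0 to 2 in formaldehyde (14.0%, 4.5% and 1.74% of all genes), and turned low estimates above 0: EPRS1 to 0.019, IARS2 to 0.11 and RARS1 to 0.14 over both treatments, EPRS1 to 0.0095, IARS2 to 0.091 and WARS2 to 0.11 in clean air, and EPRS1 to 0.028, IARS2 to 0.13 and MARS2 to 0.15 in formaldehyde. With the RNA pool as a block 20 members were called higher and 1 lower over both treatments, 13 higher in clean air and 4 in formaldehyde. With a replicate block 17, 6 and 1 were called higher (over both treatments, in clean air and in formaldehyde, where 11.7%, 6.77% and 2.01% of all genes were called higher) and 1, MARS2, lower in input; replicate differences of FA and CA input correlated across genes with r = 0.59 and those of FA and CA IP with r = 0.60, and the sources used here do not state that a number marks a shared exposure run. With DESeq2, with no filter or with a mean count of at least 50, 3, 2 and 2 members were called higher in IP over both treatments. The shares of all genes called higher there were 3.33%, 1.43% and 2.73%. Leaving out 1 library in turn gave fewer calls than the main fit, among the members and over all genes. Isoform calls followed the tool: DESeq2 called 1 higher and 1 lower in input, 9 and 2 in IP over both treatments, 5 higher in clean air, 3 and 2 in formaldehyde and 1 and 1 for the difference between treatments; without the filter edgeR called 1 higher in input, 1 and 2 over both treatments, 1 higher in clean air, 2 lower in formaldehyde and 1 and 1 for the difference; with library sizes 4 were higher over both treatments. The share of all transcripts called in these isoform settings is not given here, and the cause of the differences was not tested. The ratio of class medians in CA_IN was 6.49 by TPM and 5.33 by CPM per kilobase. Leaving out 1 library also turned small estimates: FARS2 in input (-0.067 to 0.61), RARS1 over both treatments (-0.084 to 0.034), IARS2 (-0.16 to 0.036) and WARS2 (-0.25 to 0.18) in clean air, IARS2 (-0.096 to 0.034) and MARS2 (-0.33 to 0.26) in formaldehyde, and FARS2 (-0.26 to 0.41), SARS2 (-0.36 to 0.093), VARS1 (-0.21 to 0.012) and MARS2 (-0.58 to 0.25) in the difference between treatments. The member median of that difference also changed sign, from -0.025 to 0.0083 with a mean count of at least 50 and between -0.046 and 0.026 without 1 library. The fewest counts behind a member in a library were 176, for PARS2.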
